A study of Mus musculus with 24 samples.

Results

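Surrounding cells are the brain cells without fluorescence that were sorted away from fluorescent glioma cells after a tumour was dissected. Their expression was compared between mice taken early with symptoms and mice taken before symptoms. The members were the 8 libraries whose labels end in the codes for surrounding cells of the early symptomatic and the asymptomatic stage, out of 24 libraries from 12 tumours. All gliomas had been raised by transfer of PDGFB, a growth factor that drives oligodendrocyte precursor cells (OPC), into the embryonic telencephalic ventricles in utero. The early symptomatic group held 4 libraries, 1 each from 3108C, 3108D, 3109D and 3145A, of mice with symptoms taken 35 to 50 days after transduction. The asymptomatic group held 4 libraries, from tumours 3228A, 3228B, 3228D and 3229B, of mice without symptoms taken at 33 to 34 days. Strain, sex and mouse numbers beyond the tumour codes are not given in the labels, and no brain without a glioma was sampled. Neither the code prefixes nor the days of the 2 stages overlap. The stage, the time after transduction and the origin of the mice that a prefix may mark therefore cannot be told apart.

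Cells around a glioma are a mixture. Microglia, the resident macrophages of the brain, express P2ry12, Tmem119 and Cx3cr1 at rest. Monocytes, lymphocytes and dendritic cells enter from the blood, and dendritic cells and activated macrophages carry MHC class II, the proteins that show antigen to helper T cells. Red blood cells hold little RNA besides globin transcripts, and a dissociated brain carries them according to how much blood it still holds. In bulk RNA, fewer cells of a type and less RNA per cell cannot be told apart.

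No gene was called between the stages: of 17616 genes tested with edgeR's quasi-likelihood test, 0 (0%) had a Benjamini-Hochberg adjusted p under 0.05, and the smallest was 0.99987. At an unadjusted p under 0.05 there were 645 genes, of which 258 (1.46%) were higher and 387 (2.2%) lower in early symptomatic cells. The groups did not overlap in 670 genes, with 336 (1.91%) higher and 334 (1.9%) lower. DESeq2 called 10 genes on the same 12 libraries, 6 higher (C4b, Ugt1a6b, Tcte3, Gm43336 and the immunoglobulin segments Ighv14-3 and Ighv1-26) and 4 lower (Hbb-bt, Hba-a2, Plac8 and the segment Igkv6-23), and limma voom with sample weights called 0 and had 1363 genes at an unadjusted p under 0.05. The values below are therefore descriptions of 8 libraries. Among the genes with the smallest p-values, those lower included blood, lymphoid and monocyte transcripts, and those higher included the complement gene C4b and the acute phase gene Serpina3n.

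Sequences upstream of the adult globin genes are shown, and motifs were searched in them. They were chosen because globin transcripts had the largest fold differences among the ranked genes and tested list members. Tcte3, Ugt1a6b and the immunoglobulin segments called by DESeq2, outside the ranking and lists, had larger ones. Each line gives the 250 bases before the RefSeq start of the gene on GRCm38.p6, 5′ to 3′, with CACCC and ATATAA on either strand in capitals. CACCC is the core that the erythroid factor KLF1 binds, and ATATAA is a form of the TATA box. All motifs were chosen after the values were seen.
Hba-a1, chr11:32283422-32283671, plus strand: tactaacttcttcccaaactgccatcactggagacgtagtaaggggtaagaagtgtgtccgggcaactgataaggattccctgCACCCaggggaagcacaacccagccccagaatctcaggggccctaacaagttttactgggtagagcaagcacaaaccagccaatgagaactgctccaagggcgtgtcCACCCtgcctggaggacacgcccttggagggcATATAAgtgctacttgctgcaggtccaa
Hbb-bs, chr7:103827929-103828178, minus strand: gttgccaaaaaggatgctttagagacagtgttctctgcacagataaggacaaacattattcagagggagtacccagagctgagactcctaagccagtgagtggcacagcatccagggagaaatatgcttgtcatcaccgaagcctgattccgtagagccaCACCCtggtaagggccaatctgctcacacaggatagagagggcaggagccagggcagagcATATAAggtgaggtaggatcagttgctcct
Hbb-bt, chr7:103813924-103814173, minus strand: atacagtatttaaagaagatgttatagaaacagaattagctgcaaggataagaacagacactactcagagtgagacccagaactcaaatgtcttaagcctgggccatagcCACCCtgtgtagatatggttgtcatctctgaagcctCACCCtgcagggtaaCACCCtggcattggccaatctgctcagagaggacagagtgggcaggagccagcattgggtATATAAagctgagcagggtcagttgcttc
Among 32851 windows of this length, 52% held CACCC and 9.1% held ATATAA. The exact string AGATAA, a form of an erythroid motif, in 9.99% of windows, was found in Hbb-bs and Alas2 and not in Hba-a1, Hba-a2 or Hbb-bt. Other forms of that motif, such as the TGATAA in the Hba-a1 window, were not searched. The STAT motif TTCNNNGAA, in 7.02% of windows, was searched for in Serpina3n, Stat3 and Ptgfrn and not found. ATATAA began 28 bases before the start in Hba-a1, 30 in Hbb-bs and 29 in Hbb-bt. The window of Hba-a2, shifted by 3 bases, equalled that of Hba-a1 at 247 of 247 bases, while Hbb-bs and Hbb-bt, shifted by 1 base, were equal at 51% of bases. Transcripts of each pair are near-identical, so the split of reads within a pair is an estimate.

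Globin transcripts were lower in each early symptomatic library than in any asymptomatic one. Hbb-bs, an adult beta globin, had 3.46, 14.0, 48.0 and 5.39 CPM (counts scaled to a common library size) in 3108C, 3108D, 3109D and 3145A of the early symptomatic group, against 57.1, 62.5, 102.7 and 991.9 CPM in 3228A, 3228B, 3228D and 3229B of the asymptomatic group. The groups were apart, but 3109D and 3228A were close, and 3229B stood far above the other 7 libraries. The log2 fold change was -4.09 ± 1.27 (SE, n = 4 each, edgeR adjusted p = 0.99987). Hba-a2, an alpha globin, had 3.11, 12.6, 42.1 and 8.04 CPM in the early symptomatic libraries, against 110.7, 78.1, 117.9 and 772.0 CPM in the asymptomatic ones. The order of libraries within each group was nearly that of Hbb-bs, with 3109D highest among the early ones and 3229B highest overall. Its log2 fold change was -4.03 ± 1.14, that of Hba-a1 -3.79 ± 1.11, and that of Hbb-bt -4.49 ± 1.20. Much of the size came from 3229B: without it the log2 fold changes were -2.04 for Hbb-bs, -2.61 for Hba-a2, -2.27 for Hba-a1 and -2.61 for Hbb-bt.

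**Figure D1:**
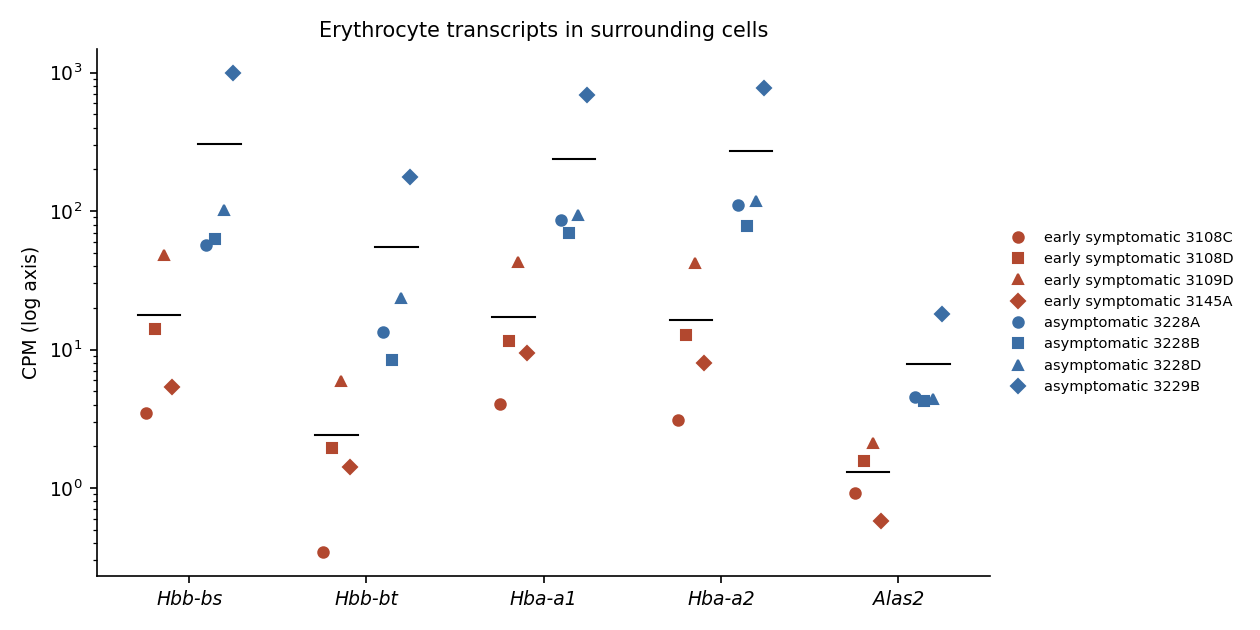
TMM-scaled CPM on a log axis for 5 erythrocyte transcripts in the 8 surrounding cell libraries, early symptomatic at left of each pair and asymptomatic at right; points are libraries and bars are group means. In each gene the 4 early symptomatic points lie below the 4 asymptomatic ones, and 3229B is the highest asymptomatic point.

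Alas2, the first enzyme of haem synthesis in red cell precursors, had 0.923, 1.56, 2.12 and 0.580 CPM in early symptomatic libraries, against 4.57, 4.23, 4.36 and 18.2 CPM in asymptomatic ones. The other 3 asymptomatic libraries were nearly equal and 3229B was again the highest. The log2 fold change was -2.58 ± 0.88, or -1.61 without 3229B and 3108C. Slc4a1, the band 3 anion exchanger of the red cell membrane, had 0 counts in the early symptomatic libraries, and 7, 7, 3 and 3 counts in the asymptomatic ones. A count of 0 allows up to 3 counts in a library, which is 0.252 to 0.324 CPM in the early group, so Slc4a1 was near the limit of detection and no fold is given. Of the 14 mature erythrocyte genes listed, 10 were tested and 6 did not overlap and were lower, against 1.9% of all genes. Bpgm, Fech and Mkrn1, which other cells also use, had log2 fold changes of -0.09 ± 0.28, 0.22 ± 0.24 and 0.08 ± 0.18. The list's median log2 fold change was -1.78, against -0.02 for all genes tested, -2.93 without 3109D, and -0.25 where the 4 globin genes were left out of the counts. Of the erythroid precursor list, 7 of 18 members were tested, with a median of -0.28 and no member apart between the groups.

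All counts assigned to globin genes made up 0.00101% to 0.0138% of a library in the early symptomatic group and 0.024% to 0.205% in the asymptomatic group. The same contrast in the glioma cells sorted from these brains gave log2 fold changes of -3.33 ± 1.38 for Hbb-bs and -3.20 ± 1.3 for Hba-a2, with levels of Hbb-bs at 0.178 to 8.65 CPM in early symptomatic and 12.7 to 111.4 CPM in asymptomatic glioma libraries. Lower globin levels were therefore also read in the other sorted fraction of the same tumours. The part of residual blood in the other differences was not tested.

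Of 22 T and NK cell genes 19 were tested, and 16 of these had log2 fold changes below 0 and 3 above. Cd3e, a chain of the T cell receptor complex, had 0.692, 0.194, 0.424 and 0.249 CPM in early symptomatic libraries, against 2.79, 1.85, 1.48 and 3.32 CPM in asymptomatic ones. The groups were apart, at low levels. Its log2 fold change was -2.59 ± 0.68. Cd3g, another chain of that complex, had 0.115, 0.0972, 0.255 and 0.0829 CPM in early symptomatic libraries, against 0.774, 1.19, 0.671 and 2.01 CPM in asymptomatic ones. Il7r, the interleukin 7 receptor of resting lymphocytes, had 1.5, 1.85, 2.55 and 2.57 CPM in early symptomatic libraries, against 8.98, 6.67, 7.98 and 18.5 CPM in asymptomatic ones. The lowest asymptomatic value was above each early value, and the log2 fold change was -2.30 ± 0.55. Nkg7, a granule protein of cytotoxic cells, was read at 0 in 3108C and 3108D, 0.0849 in 3109D and 0.166 CPM in 3145A, against 0.774, 1.04, 0.536 and 0.787 CPM in the asymptomatic libraries. Prf1, perforin, the pore-forming protein of cytotoxic cells, had 0 counts in the early symptomatic libraries and 8, 6, 4 and 7 counts in the asymptomatic ones.

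The 3 members above 0 were Thy1, Klrb1c and Foxp3, with log2 fold changes of 0.44 ± 0.83, 0.24 ± 0.65 and 0.07 ± 0.62. Thy1, which neurons and fibroblasts also express, was the abundant member, at 2.98 to 91.7 CPM in early symptomatic and 6.71 to 41.6 CPM in asymptomatic libraries, and the list's summed level overlapped, at 15.3 to 102.2 and 27.6 to 99.5 CPM. Of the 19 tested, 9 did not overlap and were lower, against 1.9% of genes. The median log2 fold change of those tested was -2.30. Members at this level can pass the count filter through the libraries where they are higher, so the count and median describe the members that passed and not the list. With only the 8 libraries in the fit, 9 members passed and their median was -1.34. Without tumours 3229B and 3108C the median was -1.93. Cd3e in the glioma libraries of the same brains was at 0 in each early symptomatic library and at most 0.146 CPM in asymptomatic ones.

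Of 20 monocyte and macrophage genes, all tested, 14 had log2 fold changes below 0 and 6 above, and 5 had an unadjusted p under 0.05, all lower, against 2.2% of genes. Ccr2, Plac8 and Clec12a were among these 5, and in them 3228D was the asymptomatic library nearest to the early ones. Ccr2, the chemokine receptor by which monocytes leave the marrow, had 11.8, 23.7, 16.9 and 29.6 CPM in early symptomatic libraries, against 136.6, 182.1, 18.5 and 42.6 CPM in asymptomatic ones. The groups overlapped because 3228D was below 2 early libraries, and the log2 fold change was -2.21 ± 0.61. Plac8, a gene of inflammatory monocytes and other leukocytes, had 2.42, 2.53, 2.21 and 6.05 CPM in early symptomatic libraries, against 20.8, 27.4, 4.76 and 19.8 CPM in asymptomatic ones. Its log2 fold change was -2.45 ± 0.57, with an adjusted p of 0.0255 in DESeq2. Clec12a, an inhibitory lectin of myeloid cells, had 0.577, 1.85, 3.48 and 3.07 CPM in early symptomatic libraries, against 12.5, 15.6, 3.55 and 9.09 CPM in asymptomatic ones, with 3109D and 3228D almost touching. Other members did not follow, as S100a6, Fn1, Vcan and Cd44 had log2 fold changes of 0.06 ± 0.49, 0.18 ± 0.89, 0.71 ± 0.54 and -0.05 ± 0.64. Vcan is also on the OPC list, so its value need not come from monocytes. On the scale of 24 libraries its early symptomatic levels were 735.8 to 1665 CPM in glioma and 528.8 to 1090 CPM in surrounding libraries. Its asymptomatic levels were 558.0 to 1211 CPM in glioma and 330.5 to 846 CPM in surrounding libraries.

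In this list 2 genes did not overlap and were lower, Clec12a among them, against 1.9% of all genes, and the median log2 fold change was -0.72. It was 0.02 without 3228B, the library with the highest Ccr2, and -1.39 without 3229B and 3108C. Cd163, a marker of macrophages at the borders of the brain, was not lower, at 14.3, 10.3, 12.4 and 10.2 CPM in early symptomatic libraries, against 3.64, 8.01, 8.78 and 13.7 CPM in asymptomatic ones. Pf4, on both this list and the platelet list, went the other way with overlap, at a log2 fold change of -1.60 ± 1.04. Among neutrophil genes, 9 of 14 were tested and Csf3r, the receptor of the growth factor G-CSF, was the 1 gene lower without overlap, at 50.8 to 69.7 CPM in early symptomatic and 88.9 to 147.7 CPM in asymptomatic libraries. S100a8 and S100a9, abundant in neutrophils, overlapped fully, and Ly6g, the defining neutrophil marker, was at 0 in the 8 libraries.

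**Figure D2:**
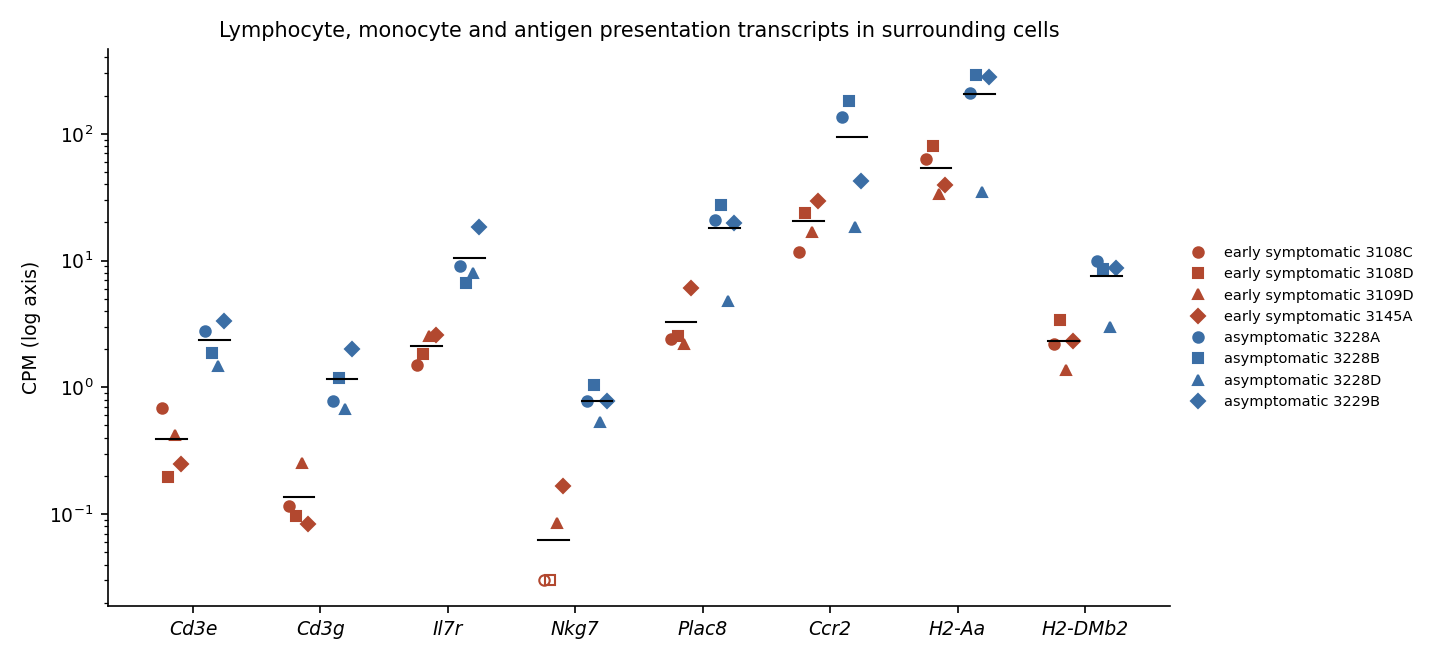
TMM-scaled CPM on a log axis for lymphocyte, monocyte and antigen presentation transcripts, early symptomatic at left of each pair and asymptomatic at right; points are libraries, bars are group means, and open symbols at the lower edge are libraries at 0. Cd3e, Cd3g, Il7r and Nkg7 do not overlap, while in Plac8, Ccr2, H2-Aa and H2-DMb2 library 3228D reaches the early symptomatic values.

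MHC class II genes had log2 fold changes below 0 in each of the 11 members tested, with overlap between the groups in each. H2-Aa, the alpha chain of I-A, had 63.8, 79.4, 33.8 and 39.4 CPM in early symptomatic libraries, against 210.0, 293.3, 34.7 and 280.9 CPM in asymptomatic ones. Library 3228D lay among the early values and the other 3 lay far above them, with a log2 fold change of -1.92 ± 0.57. Cd74, the invariant chain that escorts class II, had 195.4, 180.0, 79.3 and 96.1 CPM in early symptomatic libraries, against 589.5, 730.0, 76.6 and 537.2 CPM in asymptomatic ones, and the same library was again low. H2-Ab1 and H2-Eb1, further class II chains, were likewise low in 3228D and above each early library in the other 3 asymptomatic ones, with log2 fold changes of -1.87 ± 0.59 and -1.87 ± 0.56. Ciita, the transcriptional switch of class II genes, had 2.31, 7.39, 2.04 and 1.91 CPM in early symptomatic libraries, against 15.3, 28.4, 2.55 and 6.03 CPM in asymptomatic ones, so that 3108D lay above 3228D and 3229B. Ctss, a protease that trims the invariant chain and the most abundant member, was highest in early library 3108C, at 1008 to 3889 CPM in early symptomatic and 1532 to 2829 CPM in asymptomatic libraries, and the list's summed level was highest there too, at 4373 CPM against at most 4205 CPM in asymptomatic libraries. H2-DMb2, a chain of the peptide loading factor, had a log2 fold change of -1.70 ± 0.42. Of 12 class II genes 11 were tested, and 9 had an unadjusted p under 0.05, against 2.2% of genes. The median was -1.70, and -1.97 to -1.23 when 1 library at a time was left out. MHC class I genes, which nearly all cells express, had a median of -0.07 over 19 members, with 5 above and 14 below 0, and -0.47 without 3108C.

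Dendritic cell genes had log2 fold changes below 0 in each of 13 members tested, out of 14. Flt3, the receptor that dendritic precursors need, had 3.35, 3.60, 2.21 and 1.91 CPM in early symptomatic libraries, against 7.20, 16.9, 2.21 and 5.95 CPM in asymptomatic ones. Ccr7, by which mature dendritic cells and naive T cells reach lymph nodes, had 0.231, 1.17, 0.764 and 0.249 CPM in early symptomatic libraries, against 2.71, 5.78, 0.738 and 4.81 CPM in asymptomatic ones. In both genes 3228D lay within the early range and 3228B was the highest. In Fscn1, an actin-bundling protein of mature dendritic cells, and Siglech, a lectin of plasmacytoid dendritic cells and microglia, 3228D was above each early library, at 227.3 and 240.8 CPM, against at most 197.7 and 178.6 CPM in early symptomatic libraries. The median of the list was -1.18, and 5 members had an unadjusted p under 0.05, against 2.2% of genes. Members at the level of Ccr7 can pass the count filter through the libraries where they are higher. The counts and median therefore describe the members that passed. With only the 8 libraries in the fit, 13 members passed and their median was -1.17. Batf3, a factor of cross-presenting dendritic cells, and Ccl22, a chemokine that draws regulatory T cells, were apart and lower, against 1.9% of genes, at 0.778 to 1.99 and 1.17 to 2.65 CPM in early symptomatic libraries, against 2.19 to 5.42 and 2.71 to 4.18 CPM in asymptomatic ones.

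B and plasma cell genes depended on 2 libraries. Ighm, the heavy chain of IgM, had 291.9, 74.1, 81.1 and 87.1 CPM in early symptomatic libraries, against 176.9, 78.9, 100.8 and 1402 CPM in asymptomatic ones. Igkc, the kappa light chain constant region, had 527.0, 58.6, 13.2 and 49.1 CPM in early symptomatic libraries, against 51.1, 12.5, 4.49 and 1252 CPM in asymptomatic ones. Libraries 3108C and 3229B were thus the highest of their groups for both chains. Ighd, the heavy chain of IgD on naive B cells, was apart at 0.231, 0.778, 0.594 and 0.249 CPM in early symptomatic libraries, against 5.03, 2.22, 4.02 and 1.40 CPM in asymptomatic ones, with a log2 fold change of -2.74 ± 0.72. The list's median over 8 of 13 members tested was -1.29, and it was -0.00096 without 3229B, -2.36 without 3108C and -0.40 without both. Members at the level of Ighd can pass the count filter through the libraries where they are higher. With only the 8 libraries in the fit, 7 members passed and their median was -1.02.

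Genes of resting microglia were lower in early symptomatic cells by a smaller amount. P2ry12, the ADP receptor that steers microglial processes, had 296.2, 268.1, 476.2 and 616.6 CPM in early symptomatic libraries, against 961.5, 558.6, 1349 and 1149 CPM in asymptomatic ones. Only 3145A and 3228B crossed, and the log2 fold change was -1.28 ± 0.52. Selplg, the ligand of selectins, had 394.1, 245.8, 271.8 and 281.8 CPM in early symptomatic libraries, against 754.0, 430.7, 621.2 and 684.3 CPM in asymptomatic ones, without overlap. Cx3cr1, the fractalkine receptor, had 523.4, 560.7, 905.3 and 824.4 CPM in early symptomatic libraries, against 1455, 912.6, 1112 and 808.0 CPM in asymptomatic ones, and Tmem119 had a log2 fold change of -0.69 ± 0.55. All 16 homeostatic genes were tested, and the log2 fold change was below 0 in each; Selplg and Olfml3 were apart, against 1.9% of all genes, and 3 had an unadjusted p under 0.05, against 2.2%. The median was -0.62, and -0.72 to -0.51 when 1 library at a time was left out. Csf3r, the granulocyte receptor above, is also expressed by microglia.

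Genes of activated microglia took no common direction. Gpnmb, a membrane protein of lipid-laden macrophages, had 57.7, 9.14, 51.1 and 15.2 CPM in early symptomatic libraries, against 10.6, 10.2, 3.08 and 4.11 CPM in asymptomatic ones. Libraries 3108C and 3109D were far above the rest, and the log2 fold change was 2.25 ± 0.90. Csf1, the growth factor of macrophages, had 122.7, 59.1, 105.1 and 117.2 CPM in early symptomatic libraries, against 71.6, 57.8, 58.9 and 51.9 CPM in asymptomatic ones. Il1b, the cytokine interleukin 1 beta, had 30.7, 25.9, 32.9 and 43.1 CPM in early symptomatic libraries, against 72.6, 115.1, 15.2 and 73.2 CPM in asymptomatic ones. Of 22 such genes 15 had a log2 fold change above 0, and the median was 0.17, but -0.13 without 3108C. Ptprc, the leukocyte antigen CD45, had 113.9 to 277.1 CPM in early symptomatic and 155.5 to 300.6 CPM in asymptomatic libraries on the scale of all 24 libraries. Itgam and Cd68, general myeloid markers, had log2 fold changes of -0.12 ± 0.53 and -0.11 ± 0.52, whose direction turned with single libraries left out.

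Of 22 chemokine genes tested, 3 did not overlap and were lower, against 1.9% of all genes, and 0 were higher without overlap. Ccl9 and Ccl6, chemokines of myeloid cells, were among these, at 29.7 to 53.6 and 43.3 to 76.1 CPM in early symptomatic libraries, against 58.0 to 149.9 and 78.9 to 122.8 CPM in asymptomatic ones. Cxcl9, which draws activated T cells, had a log2 fold change of -1.80 ± 0.69 at levels of 0.509 to 1.85 CPM in early symptomatic and 1.14 to 6.30 CPM in asymptomatic libraries. The third was Cxcr6, a chemokine receptor of T cells, at 0.577 to 0.911 CPM in early symptomatic and 1.14 to 2.17 CPM in asymptomatic libraries. The chemokine median was -0.21, with 8 above and 14 below 0. Irgm1, an interferon-induced GTPase, had 60.2, 44.8, 53.6 and 52.2 CPM in early symptomatic libraries, against 41.3, 37.8, 24.6 and 35.1 CPM in asymptomatic ones, and was the 1 gene apart of 32 interferon response genes, against 1.91% of all genes higher without overlap. The interferon median was -0.15, with 12 genes above and 20 below 0, and was 0.07 without 3228A.

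C4b had the smallest unadjusted p of the ranked genes, which had a mean of at least 2 CPM and no overlap. Ugt1a6b, outside that ranking, had a smaller edgeR unadjusted p of 0.000195. C4b encodes complement component C4, which is cleaved after C1 binds and which astrocytes and oligodendrocytes make in diseased brain. Its level was 271.8, 349.6, 340.5 and 289.3 CPM in early symptomatic libraries, against 133.6, 125.6, 62.8 and 71.7 CPM in asymptomatic ones, or 313 ± 38.1 and 98.4 ± 36.4 CPM (mean and SD, n = 4 each). The groups were narrow and far apart. The log2 fold change was 1.67 ± 0.35, with an unadjusted p of 0.000384, an edgeR adjusted p of 0.99987 and a DESeq2 adjusted p of 0.00489. Over the alternatives its log2 fold change stayed between 1.46 and 1.87. C4b lies at chr17:34728380-34743882 on GRCm38, beside its near-identical copy C4a, so its reads are split by estimate. No other complement gene was apart: of 18 tested, 11 were above and 7 below 0, with a median of 0.13. The median was -0.31 without 3108C. Serping1, the inhibitor of C1, had 16.4, 8.75, 7.47 and 3.48 CPM in early symptomatic libraries, against 3.95, 2.30, 1.27 and 7.43 CPM in asymptomatic ones.

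**Figure D3:**
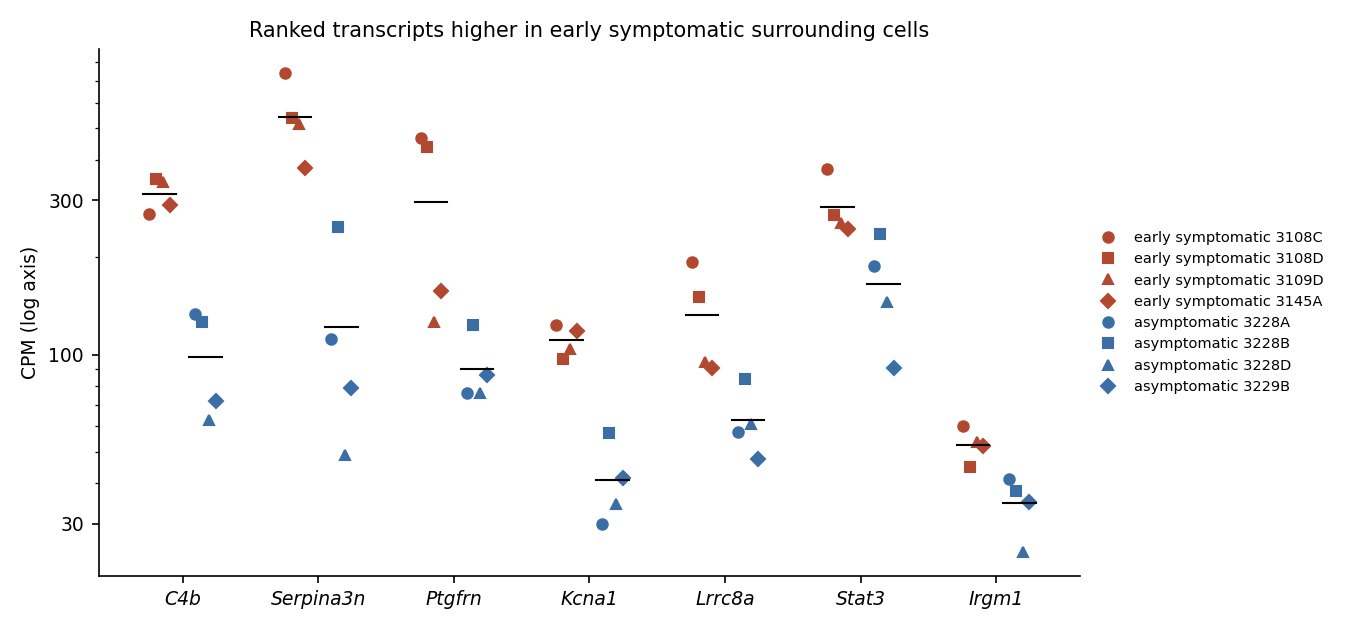
TMM-scaled CPM on a log axis for 7 of the 12 ranked genes that were higher without overlap in early symptomatic surrounding cells, early symptomatic at left of each pair and asymptomatic at right; points are libraries and bars are group means. C4b and Kcna1 have narrow groups, while Ptgfrn has 2 high early libraries, 3108C and 3108D.

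Serpina3n, a secreted protease inhibitor and a usual marker of reactive astrocytes, had 739.3, 539.2, 516.4 and 375.4 CPM in early symptomatic libraries, against 112.0, 247.2, 49.0 and 78.8 CPM in asymptomatic ones. The log2 fold change was 2.16 ± 0.57, and 3228B was the nearest asymptomatic library. On the scale of 24 libraries its early symptomatic levels were 386.3 to 1543 CPM in glioma and 403.2 to 767.6 CPM in surrounding libraries. Its asymptomatic levels were 39.3 to 538.4 CPM in glioma and 52.5 to 264.8 CPM in surrounding libraries. Gfap, on the astrocyte list, overlapped between the groups, with a log2 fold change of 0.71 ± 0.78. In that list 12 of 14 genes had log2 fold changes below 0, and the sign of the median turned without 3229B. Stat3, the factor that carries interleukin 6 signals, had 374.8, 269.6, 254.9 and 244.9 CPM in early symptomatic libraries, against 188.2, 235.0, 145.7 and 91.2 CPM in asymptomatic ones, with 3145A and 3228B close together. Kcna1, a potassium channel of axons and glia, had 123.5, 96.6, 104.3 and 118.1 CPM in early symptomatic libraries, against 29.9, 57.4, 34.5 and 41.6 CPM in asymptomatic ones, a log2 fold change of 1.44 ± 0.37. Ptgfrn, a membrane partner of tetraspanins, had 464.9, 436.7, 126.3 and 157.3 CPM in early symptomatic libraries, against 76.2, 123.4, 76.1 and 86.2 CPM in asymptomatic ones. Its higher mean came mostly from 3108C and 3108D. The other genes ranked higher were Myzap, Col20a1, Lrrc8a, Wwc2, Irgm1, Traf6 and Slc25a29, with log2 fold changes of 0.60 to 1.84. None of the 12 was called by edgeR.

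The genes ranked lower included Lst1, Il7r, Dynlt1b, Hbb-bt, Ebf3, Clec12a, Hba-a2, Krt80, Il4i1 and Map11, with log2 fold changes of -4.49 to -1.10. Lst1, a leukocyte gene of the MHC region, had 1.62, 4.86, 3.06 and 2.90 CPM in early symptomatic libraries, against 11.7, 10.7, 7.44 and 13.2 CPM in asymptomatic ones, and a log2 fold change of -1.78 ± 0.43. In this gene 3228D, the asymptomatic library that was low in class II, still lay above the early libraries. Dynlt1b has near-identical neighbouring copies, and its value of 10.4 ± 2.95 CPM in early symptomatic libraries and 25.7 ± 7.21 CPM in asymptomatic ones (mean and SD, n = 4 each) is an estimate.

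Library 3229B and library 3108C stood apart from the other 6, and several brain cell lists moved with them. The first principal component of the 8 libraries, 31.4% of the variance, placed 3229B at 91.1 and the others at -34.4 to -1.17, and the second, 26.8%, placed 3108C at 82.1. In 3229B mitochondrial genes took 30.3% of counts, against 7.41% to 19.3% in the other 7. Summed levels of ependymal and choroid plexus genes were 22.5 to 377 CPM in early symptomatic and 32.7 to 1469 CPM in asymptomatic libraries, with 3229B the highest. Astrocyte, oligodendrocyte, neuron and ependymal lists had medians of -0.59, -0.45, -0.67 and -0.45, and without 3229B they were 0.18, 0.49, 0.42 and 0.34, so their direction rested on that library. Gja1, the astrocyte gap junction protein, had 38.8, 66.3, 42.8 and 29.3 CPM in early symptomatic libraries, against 90.1, 39.7, 71.0 and 207.9 CPM in asymptomatic ones. Fibroblast genes had a median of 1.09, and 0.06 without 3108C and 2.48 without 3228B. Collagen genes such as Col1a1 had 494.2, 167.4, 27.0 and 5.39 CPM in early symptomatic libraries, against 10.5, 242.4, 4.63 and 11.1 CPM in asymptomatic ones. Without both libraries the medians were -1.61 for erythrocyte, -1.59 for class II, -1.37 for dendritic and -0.03 for fibroblast genes.

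**Figure D4:**
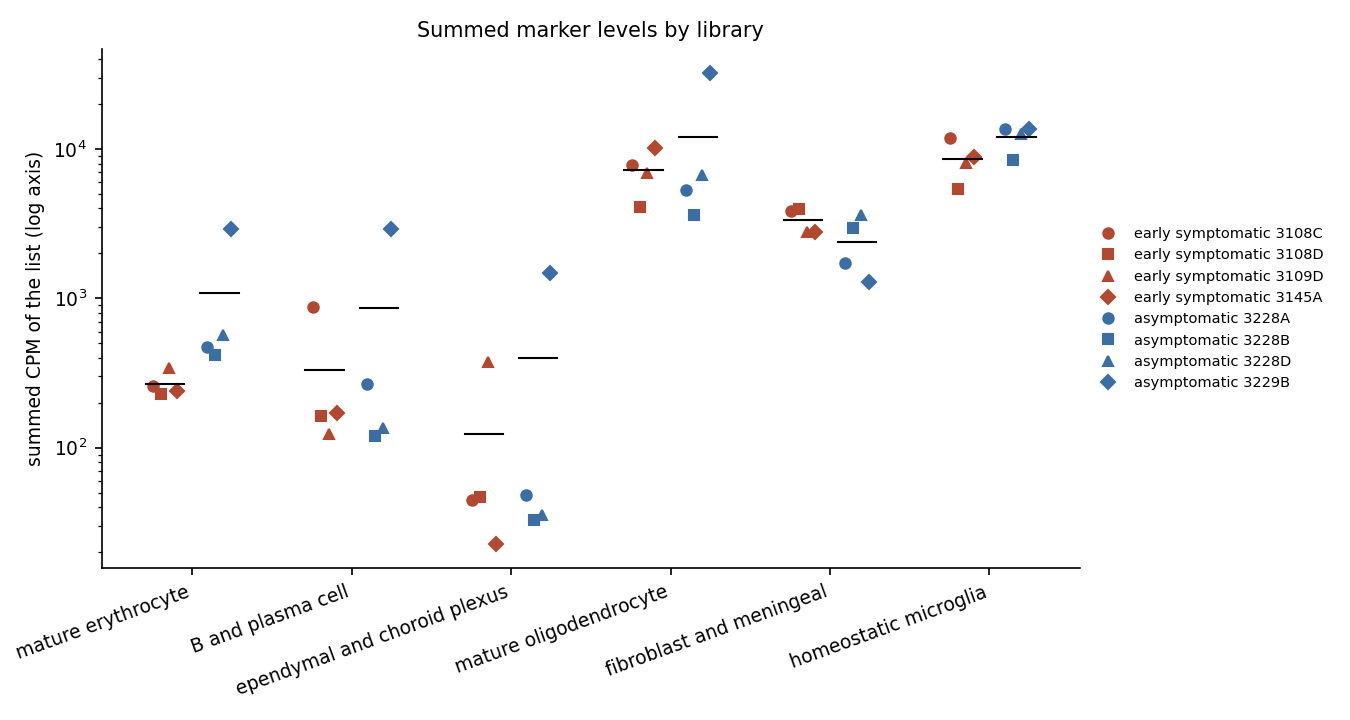
Summed TMM-scaled CPM of 6 marker lists on a log axis, early symptomatic at left of each pair and asymptomatic at right; points are libraries and bars are group means. Erythrocyte sums are 229.8 to 344.0 CPM in early symptomatic and 415.9 to 2902 CPM in asymptomatic libraries, and 3229B is the highest for B cell, ependymal and oligodendrocyte sums. The sums include genes that other cells also use. In 3108C the listed globin genes were at most 4.04 CPM each, within an erythrocyte sum of 257.9 CPM. The fibroblast sums include Pdgfra, also an OPC marker, at 1855 to 3227 CPM in early symptomatic and 1123 to 3550 CPM in asymptomatic libraries.

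The sorted fraction carried glioma or precursor transcripts in both groups. Pdgfra, the receptor of PDGF and a marker of OPC, had 1926 to 3288 CPM in early symptomatic and 1160 to 3810 CPM in asymptomatic surrounding libraries on the scale of all 24 libraries, against 4185 to 6036 and 3166 to 5005 CPM in the early symptomatic and asymptomatic glioma libraries. The label of surrounding cells is met for immune content, as Ptprc had at least 113.9 CPM in surrounding cells and at most 12.5 CPM in those glioma libraries. The OPC median was 0.09, with Pdgfra at 0.32 ± 0.68. Of 22 mitosis genes 17 had log2 fold changes below 0 and 5 above, with a median of -0.12, which was 0.05 without 3228A, and Mki67, a marker of cycling cells, at 0.26 ± 0.45. DNA replication genes had log2 fold changes below 0 in 24 of 24, with a median of -0.42 and 1 at an unadjusted p under 0.05, against 2.2% of genes.

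**Figure D5:**
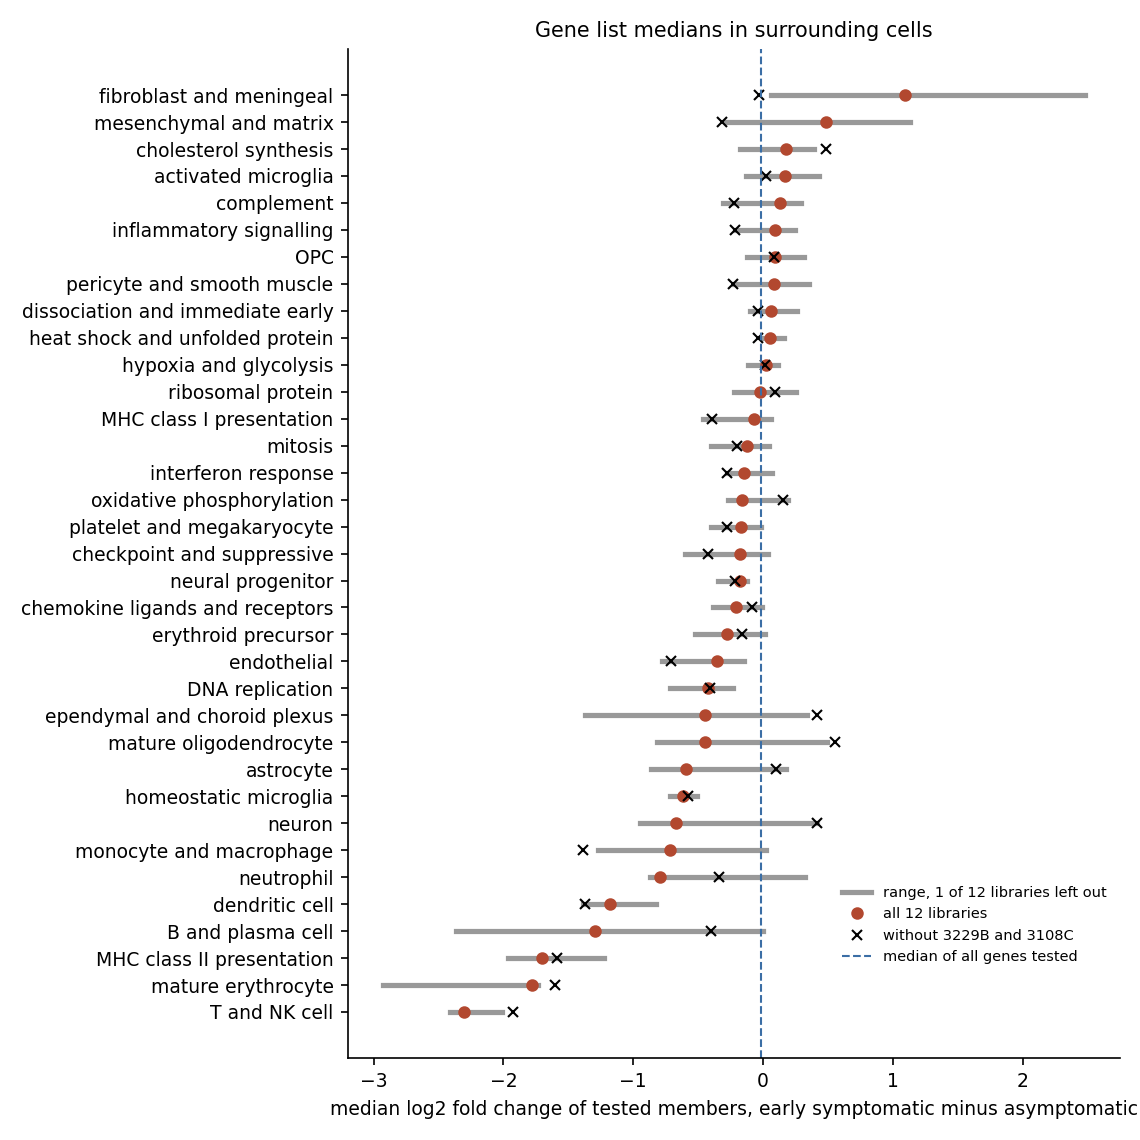
Median log2 fold change, early symptomatic minus asymptomatic, of the tested members of each gene list in surrounding cells; grey lines are the range when 1 of 12 libraries is left out, crosses are without 3229B and 3108C, and the dashed line is the median of all genes. T and NK cell, erythrocyte, class II and dendritic medians stay at or below -0.83, while astrocyte, neuron and oligodendrocyte ranges cross 0.

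Whether the stage difference differed between surrounding and glioma cells was tested as an interaction in all 24 libraries. Of 18810 genes tested, 0 (0%) were called with edgeR, 290 had an unadjusted p under 0.05, and limma voom called 0, with 584 at that p. C4b had log2 fold changes of 1.67 ± 0.35 in surrounding and 1.16 ± 0.44 in glioma cells of the same brains, Serpina3n 2.16 ± 0.57 and 1.78 ± 0.69, and Kcna1 1.44 ± 0.37 and 1.17 ± 0.35. Gpnmb was 2.25 ± 0.90 in surrounding and -1.57 ± 0.93 in glioma cells. The surrounding values here are from the fit of 12 libraries and the glioma values from that of 24. The tested differences, all from the fit of 24, were 0.47 ± 0.61 for C4b and 3.78 ± 1.31 for Gpnmb. None of these differences was called, which does not show that the stage acted alike in both fractions.

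Sex was unequal between the stages. Xist, which marks female libraries, was above 100 CPM in 3 of 4 early symptomatic and 1 of 4 asymptomatic surrounding libraries, and Y-linked Ddx3y was high in the others. With Xist as a covariate edgeR called 0 genes and had 483 at an unadjusted p under 0.05, and the T and NK, erythrocyte and class II medians were -2.22, -1.89 and -1.67. Among glioma libraries of the early stage, Xist and Ddx3y were exchanged between the codes 3108D and 3109D relative to their surrounding libraries, which leaves the groups as they are.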

How the data were processed

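RNA of sorted surrounding and glioma cells from 12 PDGFB gliomas was measured in 24 libraries, prepared from polyA-selected RNA per the labels' protocols. The authors deposited 1 table of expected counts, made with STAR 2.7.5c and RSEM 1.3.1 on GRCm38, per the submitters' processing notes; annotation, strand setting and use of molecular identifiers are not given in the sources used here. Overlapping, antisense and near-identical genes are therefore uncertain. The table holds 55938 genes, of which 98.6% matched GENCODE M21, the source of coordinates. Totals were 9270000 to 14670000 counts in the 8 libraries compared. No 2 libraries of a group were copies, since chi-square per degree of freedom was at least 20.2 within groups.

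Expected counts were rounded and fitted with edgeR 4.0.16 in R 4.3.3: TMM scaling, a low count filter with a minimum of 10, robust quasi-likelihood, group means in the 12 surrounding libraries (4 late symptomatic ones included for the spread), and Benjamini-Hochberg adjustment over all genes tested. Adjusted p under 0.05 was called. In any list, members at a low level can pass the filter through the libraries where they are higher. List counts and medians therefore describe the members that passed. CPM are TMM-scaled over these 12 libraries, and the error beside each log2 fold change is a standard error taken from the F statistic. Libraries of a group come from separate tumours. Early and late symptomatic stages were divided by the letters that end the labels. The difference from glioma cells was an interaction over 24 libraries; the labels give both libraries of a code to 1 brain, so the tumour was a replicate block in an alternative. The procedure was run on simulated counts whose spread was set by hand and not taken from these libraries. That run does not show which differences could be called in them.

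Named genes were up to 12 per direction with the smallest p, a mean of at least 2 CPM and no overlap, filled with genes that were not called, plus up to 4 members of each list and a fixed set of markers. Predicted genes, mitochondrial genes, receptor and immunoglobulin segments and sex genes were left out of the ranking. Some named genes are not reported here. The members and lists were chosen with earlier results of these data known, and the lists described at length were picked after their values were seen. Alternatives were DESeq2 1.42.0, limma 3.58.1 voom, other scaling, filters and sample sets, covariates, globin removal and leaving out libraries. A fit without 3229B and 3108C, and a block with the codes of glioma libraries 3108D and 3109D exchanged, were chosen after seeing the data.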

Additional observations from a re-analysis of the deposited data

Results flagged for a closer look

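Each group of 4 libraries was examined for a library far from the other 3, by its gap to the nearest divided by the range of the group (Dixon's ratio, at its 95% limit), over 85 named genes and 36 list sums. Of 242 groups 24 passed the limit, while chance flags about 1 in 20 independent groups with normal spread. These groups share libraries, and the sums share genes with the named genes, so their number cannot be set against that rate. Among erythrocyte transcripts, asymptomatic library 3229B was far above the others for Alas2 (0.951) and Hba-a1 (0.869) and for the summed erythrocyte list (0.84). It was also the outlying high library for Ccl9 (0.836) and for the ependymal (0.899) and oxidative phosphorylation (0.898) sums. Early symptomatic library 3108C was far above its group for Ighm (0.883), Traf6 (0.84), the B and plasma cell sum (0.832) and the class II sum (0.835). The class II sum includes Ctss, a protease that microglia express at a high level.

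Asymptomatic library 3228D was far below its group for H2-DMb2 (0.872), H2-Aa (0.842) and Cd74 (0.864), and for the inflammatory signalling sum (0.847). Early symptomatic library 3145A was the high one for Plac8 (0.879) and the low one for Col20a1 (0.867), and 3109D the low one for Slc25a29 (0.876). Early symptomatic library 3108D was far below its group for Dynlt1b (0.954), Pdgfb (0.867), the immediate early sum (0.85) and the oxidative phosphorylation sum (0.917), and above it for the pericyte sum (0.882). The pericyte sum includes Cspg4, which is also on the OPC list, at 758.7 of 927.4 CPM in 3108D. Xist was far lower in 3108D than in the other early symptomatic libraries (0.913), and far higher in 3228A than in the other asymptomatic ones (0.884).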

How the results depend on the processing

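The count of 0 called genes was 10 in DESeq2 and 0 in every other fit run, with 304 to 1363 genes at an unadjusted p under 0.05 over those fits; leaving out 1 library at a time gave 0 to 0 called and 471 to 932 at that p. The interaction with glioma cells had 0 called genes in each alternative, with the tumour as replicate block (494 at an unadjusted p under 0.05, against 290) and with the exchanged block (566) included. Of 2013 values of 85 named genes, 1989 kept direction and side of the threshold, 4 passed it in DESeq2 (C4b, Hbb-bt, Hba-a2 and Plac8) and 20 reversed; the cause was not tested. The microglia covariate was the mean level of the homeostatic list, which holds Tmem119, so that gene was in part adjusted for itself. With the microglia list as covariate the log2 fold changes that reversed were 0.19 for Tmem119, 0.53 for Itgam, 0.47 for Cd68, 0.017 for Pecam1, -0.31 for Pdgfra and 0.12 for Pdgfb. Without 3229B they were 0.18 for Ighm, 2.03 for Jchain, 0.25 for S100a8, 0.64 for Mbp and -0.0056 for Mki67. With voom weights Jchain was 1.69 and Mbp 0.15, without 3229B and 3108C Jchain was 1.62 and Mbp 0.18, and with Xist as covariate Mki67 was -0.17. Without 3108C Lcn2 was -0.14, without 3108D Itgam was 0.06 and Cd68 0.13, and without 3228A Itgam was 0.15. Over the fits that left out 1 library, the ranges were -2.44 to 0.18 for Ighm, -2.79 to 2.03 for Jchain, -0.14 to 1.94 for Lcn2, -1.51 to 0.25 for S100a8, -0.40 to 0.15 for Itgam, -0.38 to 0.13 for Cd68 and -1.99 to 0.64 for Mbp. Transcripts under 1 CPM rest on few counts, and 4 libraries per group limit what can be called.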

Other observations

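Genes with 0 counts in each library of a stage and at least 3 in each library of the other were few. Slc4a1 and Prf1 were at 0 in the early symptomatic group, and Tcte3 and Ugt1a6b in the asymptomatic group. Tcte3, a dynein light chain gene with near-identical copies, had 7, 39, 54 and 19 counts in early symptomatic surrounding libraries, against 0 counts in the asymptomatic ones. In asymptomatic glioma libraries it had 9, 43, 6 and 14 counts. Ugt1a6b, a glucuronosyltransferase that shares exons with its neighbours, had 19, 4, 9 and 21 counts in early symptomatic surrounding libraries, against 0 counts in the asymptomatic ones, and reads of both genes are split by estimate.

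Among genes of lipid supply, 18 of 20 cholesterol synthesis genes had log2 fold changes above 0, with a median of 0.18 and none at an unadjusted p under 0.05. Without 3145A the list's median was -0.18. Nt5e, the enzyme CD73 that makes adenosine from AMP, had 185.2, 85.2, 90.1 and 191.0 CPM in early symptomatic libraries, against 55.6, 96.6, 70.4 and 44.1 CPM in asymptomatic ones, a log2 fold change of 1.05 ± 0.38 with an edgeR adjusted p of 0.99987.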
